A study of Mus musculus with 16 samples.

Results

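The cytosolic ribosomal protein genes were examined in mouse clear cell sarcoma (mCCS) tumours for peaks of the V5-tagged EWSR1::ATF1 fusion (EA1), of RNA polymerase II and of acetylated histone H3 at their promoters. The members were all protein-coding genes of GENCODE vM21 whose symbol begins with Rpl or Rps and a digit, together with Rpsa, Rplp0, Rplp1 and Rplp2, leaving out pseudogenes and the Rps6k kinases. This rule gave 86 of 21938 protein-coding genes. Of these, 77 were the regular genes, 46 for the large and 31 for the small subunit. The other 9 were 8 copies or paralogs (Rpl3l, Rpl7l1, Rpl10l, Rpl22l1, Rpl36al, Rpl39l, Rps27l and Rps27rt) and Rps19bp1, which encodes a binding partner of a ribosomal protein rather than a subunit.

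All 16 samples carried the genotype EWSR1::ATF1 and were labelled as tumour. The study used a conditional human EWSR1::ATF1 type 1 allele at Rosa26 with a V5 tag on a mixed strain background, switched on by injection of TATCre protein into the hindlimb. Chromatin immunoprecipitation and sequencing was done with antibodies against V5, phosphorylated RNA polymerase II (Pol2) and H3K27ac, a histone mark of active promoters and enhancers, with 4 labelled samples each and 4 input samples. No tumour without the fusion, and no normal tissue, was part of the comparison, so every value below is a level within the tumours. The tumours were used in bulk, so fewer cells that carry a peak and less signal per cell cannot be told apart. The deposited files gave 1 peak list per antibody with a score for each peak and no value per sample, so there was no replicate error, no depth per library and no test.

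Ribosomal protein genes are among the most actively transcribed genes of growing cells, and their products are needed in equal amounts to build ribosomes. Their promoters usually lack a canonical TATA box, are rich in sites of general factors such as ETS proteins, and start within a pyrimidine tract (5′ TOP) through which mTOR controls translation of the mRNA. ATF1, the DNA-binding partner in the fusion, belongs to the CREB family of basic leucine zipper factors, which bind the palindrome TGACGTCA and, less tightly, its TGACG half-site.

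The sequences at the starts of 6 of the members with the highest V5 scores show what lies under these peaks. Each runs from 80 bases before to 20 bases from the annotated start of the principal transcript (GRCm38, gene strand, 5′ to 3′), and capitals mark TGACG or its reverse complement CGTCA. Rpl18 and Rpl34, which also ranked this high, are left out because annotated untranslated regions cover most of their windows.
Rpl9 (chr5:65391425-65391524, minus strand): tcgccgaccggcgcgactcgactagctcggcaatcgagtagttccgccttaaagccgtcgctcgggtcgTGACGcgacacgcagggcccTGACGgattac
Rpl21 (chr5:146832810-146832909, plus strand): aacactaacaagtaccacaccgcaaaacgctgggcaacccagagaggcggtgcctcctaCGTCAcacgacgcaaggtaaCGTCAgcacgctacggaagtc
Rpl23 (chr11:97782418-97782517, minus strand): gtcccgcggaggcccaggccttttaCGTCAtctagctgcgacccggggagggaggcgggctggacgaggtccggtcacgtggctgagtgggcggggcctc
Rps29 (chr12:69159167-69159266, minus strand): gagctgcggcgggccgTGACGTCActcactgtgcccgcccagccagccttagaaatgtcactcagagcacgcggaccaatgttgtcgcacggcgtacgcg
Rps9 (chr7:3703913-3704012, plus strand): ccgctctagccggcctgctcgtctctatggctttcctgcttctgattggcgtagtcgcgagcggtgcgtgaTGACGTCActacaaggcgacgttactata
Rpl24 (chr16:55966195-55966294, plus strand): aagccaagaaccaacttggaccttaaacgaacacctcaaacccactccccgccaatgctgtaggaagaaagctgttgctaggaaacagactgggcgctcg
Of these starts, 5 held at least 1 half-site and Rpl24 held none, although its V5 peak covered the start.

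To ask how often the fusion, the polymerase and the acetyl mark were found at these genes, a peak within 3 kb of any annotated transcription start site (TSS) of a gene was called its promoter peak. V5 promoter peaks were found at 27 members (31.4%), against 16.6% of all protein-coding genes. Pol2 promoter peaks were found at 82 members (95.3%), against 53.5%, and H3K27ac promoter peaks at 83 (96.5%), against 58.6%. All 3 peaks were found at 27 members (31.4%), against 15.9%, so each member with V5 also had the other marks. This was general, since 3484 of the 3640 coding genes with V5 had all 3 peaks. Among the 77 regular genes, each had both Pol2 and H3K27ac, and 26 (33.8%) had V5. V5 was found at 18 of 46 regular large subunit genes (39.1%) and at 8 of 31 regular small subunit genes (25.8%).

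**Figure D1:**
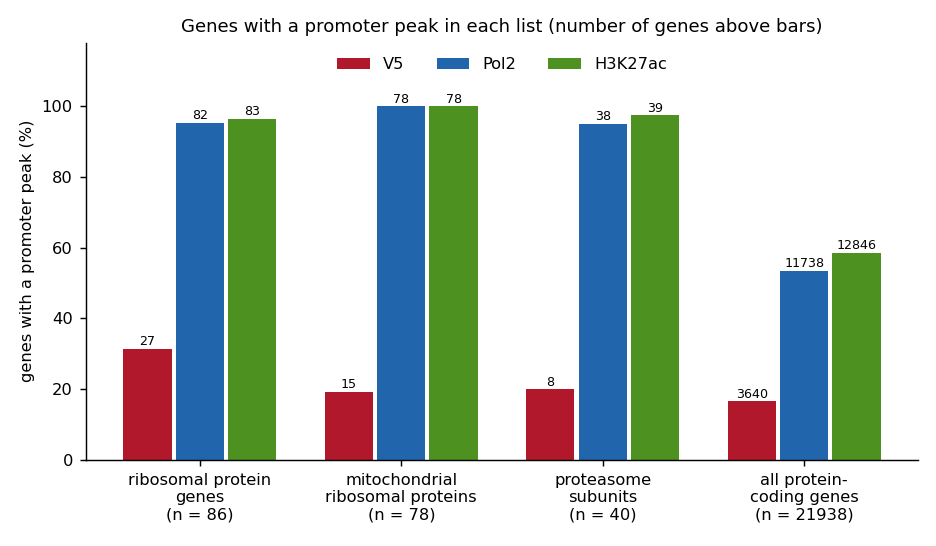
Share of genes (%, vertical axis) with a promoter peak of V5, Pol2 or H3K27ac, for the ribosomal protein genes, mitochondrial ribosomal proteins, proteasome subunits and all protein-coding genes, with gene counts above the bars. V5 stands at 31.4% of the ribosomal protein genes and 16.6% of all coding genes, while Pol2 and H3K27ac are found at 95% or more of the 3 housekeeping groups.

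Other housekeeping gene groups gave a scale for these shares. Mitochondrial ribosomal protein genes had V5 at 15 of 78 (19.2%) and proteasome subunit genes at 8 of 40 (20%). Each of the 78 mitochondrial ribosomal protein genes had Pol2 and H3K27ac peaks. Their median Pol2 score was 864 and that of the proteasome genes 1031, both below the 3090 of the cytosolic ribosomal protein genes.

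The Pol2 peaks at these genes were among the highest of all promoters. The median Pol2 score of the 82 members with a peak was 3090, with a range of 897 to 7319, and the median of all coding genes with a peak was 912. A score in the upper 25% of coding promoter peaks was reached by 76 members (92.7%), against 24.9% of coding genes, and 81 scored above the coding median. The highest were Rpl3 at 7319, which lies near the peptidyl transferase centre, and Rplp0 at 6221, the base of the ribosomal stalk. Rpl12 scored 5677, and Rps6, the target of S6 kinase, scored 5142. The lowest was Rps19bp1 at 897.

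H3K27ac was present at the same promoters, but its scores were nearer to those of other genes. Its median was 1201 in members, with a range of 41 to 3576, and 863 in coding genes. The upper 25% was reached by 20 of 83 members (24.1%), against 24.8% of coding genes. The 4 highest scores belonged to Rps14 (3576), Rpl7 (3122), Rpl19 (3077) and Rplp0 (2715). The Rps14 value came from a peak at an upstream alternative start, with its middle at -27021 bp from the principal start, and the peak within 3 kb of the principal start scored 2030. Thus a Pol2 score near the top of its list went with a middling H3K27ac score at many of these genes. Among coding genes of the upper 25% by Pol2 the median H3K27ac score was 1994, and among the 76 members of that class it was 1201.

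**Figure D2:**
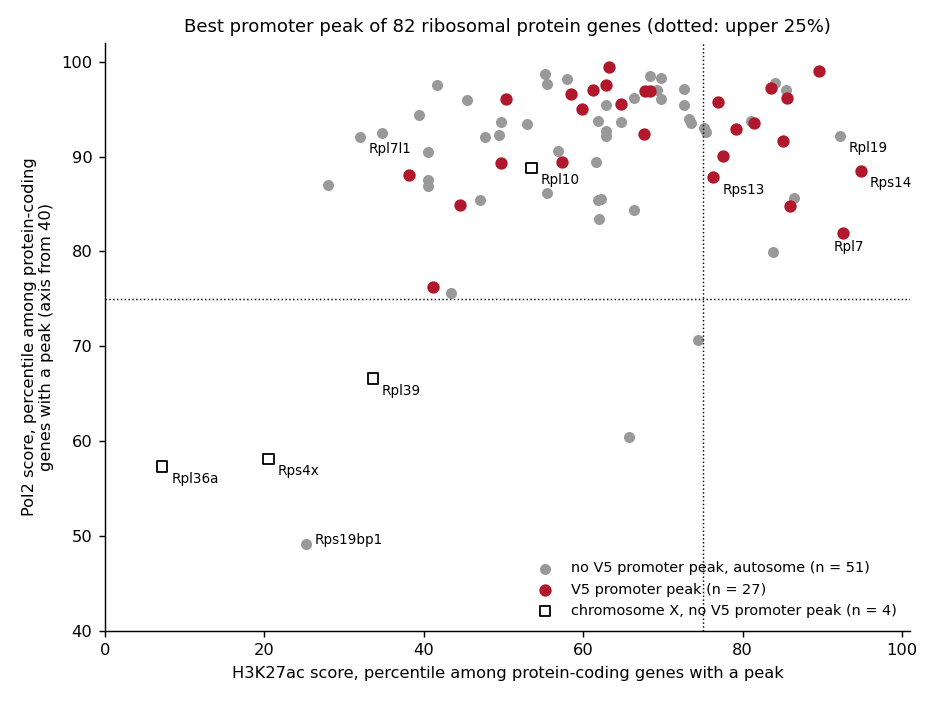
Percentile of the best Pol2 promoter peak (vertical axis, from 40) against that of the best H3K27ac promoter peak (horizontal axis), each among coding genes with a peak in that list, for the 82 members that have both, with dotted lines at the upper 25%. Most points lie above the Pol2 line while H3K27ac spreads over the whole range, and members with V5 (red) lie among the others.

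The V5 scores covered a wide range, from 50 to 5717. Their median was 241 in members and 196 in coding genes, and 9 of 27 (33.3%) reached the upper 25%, against 24.9% of coding genes. The highest was Rpl9 at 5717, which ranked 58 of the 10665 V5 peaks. Rpl18 scored 2889 (rank 247) and Rpl21 scored 1345 (rank 807). Rpl34 (1056), Rpl23 (899), Rps29 (844), Rpl24 (829), Rps9 (637) and Rps2 (568) came next. All of these encode structural proteins of a subunit, 6 large and 3 small. Of the remaining 18 members with V5, Rpl4 was highest at 388. The scores of Rpl3, Rpl22l1, Rplp2, Rpl13a, Rpl27a, Rpl41, Rplp0, Rpl37a, Rpl26, Rps14, Rps18, Rpl15, Rps13 and Rpsa lay between 103 and 289, and Rps7 (67) and Rpl7 (50) were lowest. The widest V5 peaks were those of Rpl7 (1240 bp), Rpl13a (1150 bp) and Rps29 (1120 bp), against a median of 680 bp in members and 710 bp in coding genes, so the widest peak was also the lowest scored.

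In coding genes the share with V5 went from 14.2% in the lowest to 50.8% in the highest 25% of Pol2 scores, so the members were also set against genes of the same class. Among coding genes of the upper 25% by Pol2 (scores of 1639 to 22048), V5 was found at 1481 of 2917 (50.8%), and among the 76 members of that class at 27 (35.5%). In the upper 10% by Pol2 the shares were 60% of 1178 coding genes and 34% of 53 members. The share in members was thus above that of all coding genes and below that of coding genes in the same Pol2 classes. None of the 6 members with a lower Pol2 score had V5. Of these, 1 scored between 449 and 912 and 5 between 913 and 1638. In these classes 22.5% and 31.6% of coding genes had V5, so 6 members are too few to show a difference. Members with V5 had a median Pol2 score of 3237 and a median H3K27ac score of 1380, and members without V5 had 3076 and 1169.

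V5 lay close to the start of transcription at most of the 27 members that had it. The middle of the best V5 peak was a median of 22 bp before the principal start (quartiles -70.5 and 43.5 bp), within 500 bp of it at 24 of 27 members, and the peak covered the start at 25. These positions were not computed for the V5 peaks of all coding genes, so they are not shown to be particular to the members. The best Pol2 and H3K27ac peaks lay further downstream, with median middles at 198 and 285 bp after the start. These medians are over the 82 and 83 members with such peaks, not over the 27 with V5. Each of the 27 V5 peaks overlapped a Pol2 peak and an H3K27ac peak, a share that was not computed for coding genes.

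**Figure D3:**
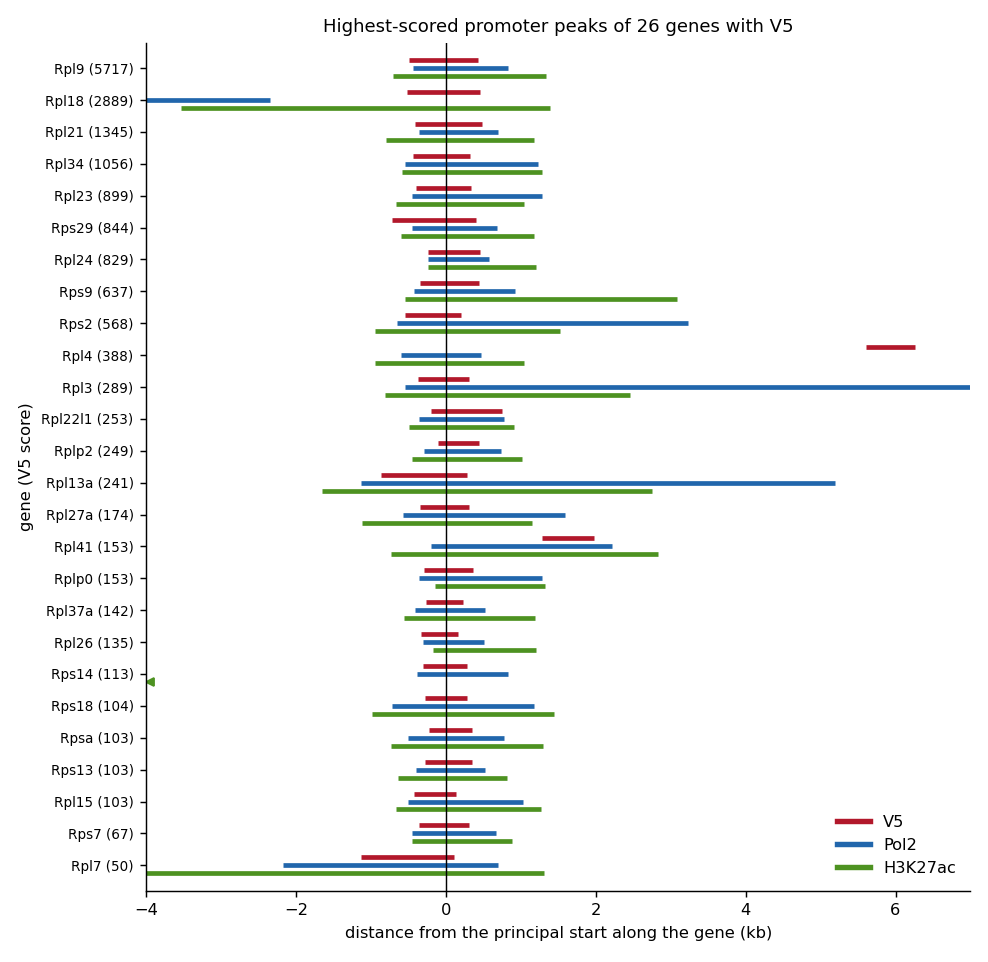
Extent of the highest-scored V5, Pol2 and H3K27ac promoter peaks (bars) around the principal start (0 on the horizontal axis, in kb along the gene) of 26 members with V5, ordered by V5 score, cut at the plot edges (an arrowhead marks a peak beyond them). V5 bars are short and cross the start, with the exceptions of Rpl4 and Rpl41, and Pol2 bars reach further into several genes such as Rpl3 and Rpl13a.

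Several V5 peaks could not be given to a ribosomal protein gene alone. At 20 of 27 members the nearest annotated start to the middle of the peak was one of the member's own, and at 7 it belonged to another gene. The Rpl9 peak (chr5:65391021-65391940) was 17 bp from a start of Lias, the lipoic acid synthetase gene that is read in the opposite direction, and 36 bp from that of Rpl9. The best Rpl4 peak (chr9:64178981-64179640) lay at Snapc5, 5935 bp after the Rpl4 start, and a peak with a score of 338 covered the start of Rpl4 (chr9:64172691-64173540) but had its middle 11 bp from a start of Zwilch and 260 bp from that of Rpl4. Likewise the best Rpl41 peak (153) lay at Zc3h10, and a lower one (103) covered the Rpl41 start. At Rpl15 the nearest start was that of Nkiras1. The other 3 peaks were nearest to starts of non-coding genes, Rn7s1 (a 7SL RNA gene) at Rps29, Snhg9 (a host of small nucleolar RNAs) at Rps2 and Gm28037 at Rpl24.

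To ask which sequence features the promoters shared, the 300 bases from 250 bp before to 50 bp after each principal start were searched on both strands, in members and in the 21853 coding genes with a principal transcript. The half-site TGACG was found in 41 of 86 members (47.7%), against 23.6% of coding genes. It was found in 25 of 27 members with V5 (92.6%) and in 16 of 59 without (27.1%). Among coding genes the shares were 50.8% with V5 and 18.2% without, and within the upper 25% by Pol2 they were 51.8% and 25.5%. The 2 members with V5 and no half-site in this window were Rpl24 and Rps2. In the 20 members whose V5 peak was nearest to their own start, a restriction chosen after seeing the data, the half-site was found in all 20. That restriction left out both Rpl24 and Rps2, so the result follows from the choice, and it was not applied to coding genes. V5 was called at any start, while the motif was searched at the principal one. With principal starts only, V5 was found at 27 members and 3132 coding genes, against 3640 coding genes with any start. In the V5-bound members the half-site nearest to the start lay at a median of -45 (counting the first base of the transcript as 1 and the base before it as -1), and 7 members held more than 1 separate site when both arms of a palindrome are counted as 1. Rpl9 and Rpl34 each held 4.

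**Figure D4:**
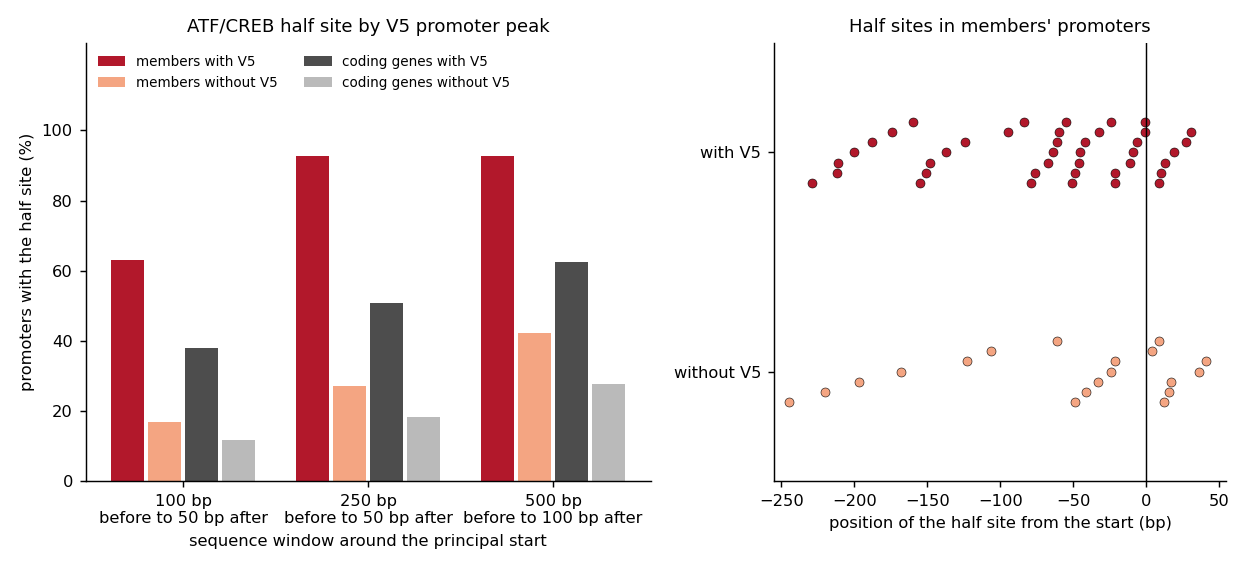
Left, share of promoters with the ATF/CREB half-site (%, vertical axis) for members and coding genes with and without a V5 promoter peak, in 3 sequence windows. Right, position of each half-site in the 300-base window of members (horizontal axis, bp from the start, with points spread vertically for clarity), showing 41 sites in members with V5 and 19 in members without, with the arms of a palindrome as separate points.

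The full palindrome TGACGTCA was found in 6 promoters of members (6.98%), against 2.47% of coding genes. With V5 these were Rpl18, Rpl26, Rpl27a, Rps9 and Rps29 (5 of 27, 18.5%), and without V5 only Rpl13 had it (1 of 59, 1.69%). In coding genes the shares were 9.43% with V5 and 1.08% without. Inside the V5 peaks themselves the palindrome was found in 8 of the 30 V5 promoter peaks of members (26.7%), against 14% of 3595 at coding promoters, and the half-site in 28 (93.3%), against 79.7%. A half-site lay within 100 bp of the middle of the peak in 20 of 30 (66.7%), against 51.2%. The palindromes are shown with 10 bases on each side, in capitals, because they are the sites on which the match to the ATF1 motif is complete.
Rpl18, first base at -79: cgcgctcatgTGACGTCAcccgtgcacc
Rpl26, first base at -151: ctccgagggaTGACGTCAggacccctcg
Rpl27a, first base at -49: ccgggagccgTGACGTCAggagcccttc
Rps29, first base at -64: cggcgggccgTGACGTCActcactgtgc
Rps9, first base at -9: cggtgcgtgaTGACGTCActacaaggcg
Rpl13, first base at -24, no V5 promoter peak: cgggttcgcgTGACGTCActtccctttc
The scores at the 5 bound promoters were 2889 for Rpl18, 844 for Rps29, 637 for Rps9, 174 for Rpl27a and 135 for Rpl26, so an intact palindrome went with both high and low scores. Rpl13 had a Pol2 score of 3277 and an H3K27ac score of 1988, and its nearest V5 peak was 59520 bp away. The remaining palindromes lay in the V5 peaks at the Rpl4 start, at Snapc5 and at Zc3h10. The AP1 motif TGAGTCA, which is shorter than the palindrome by a base and is bound by FOS and JUN proteins, was found in 2 of 30 V5 peaks of members (6.67%, those of Rpl7 and Rpl9), against 13.8% at coding promoters.

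Other promoter elements were also found in members with and without V5. Their shares are given beside those of all coding genes and of coding genes with a Pol2 promoter peak, since most members had one. The ETS motif CCGGAAG was found in 33.7% of members, 11.2% of all coding genes and 18.3% of those with Pol2, with 37% of members with V5 and 32.2% of those without. The element TCTCGCGA was found in 14 members (16.3%), against 1.36% and 2.3%, with 3 of 27 members with V5 (11.1%) and 11 of 59 without (18.6%). The YY1 motif AAGATGGCG was found in 4 members (4.65%), against 1.88% and 3.27%, all 4 without V5. The NRF1 motif GCATGCGC was found in 4.65% of members, above the 3.72% of all coding genes and below the 5.46% of those with Pol2. The AP1 motif was found in 3.49%, against 4.52% and 3.12%. The SP1 motif GGGCGG was found in 53.5% of members, also above all coding genes (45.4%) and below those with Pol2 (65.5%). The E box CACGTG was found in 18.5% of members with V5 and 8.47% of those without (7.7% of all coding genes and 9.88% of those with Pol2). The TATA box TATAAA was found in 18.5% and 6.78% (12.7% and 6.75%). Each of these shares with V5 rests on 5 members. TCTCGCGA is shown in capitals at 2 members, chosen after the values were seen.
Rps6, first base at -6, no V5: cgccggctgtTCTCGCGAgaacttagag
Rpl26, first base at -43, with V5: gctccgagacTCTCGCGAgatctcgcgg

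A pyrimidine tract that could serve as a 5′ TOP was defined as a C followed by 4 pyrimidines, all lying within 10 bases of the annotated start. It was found in 37 members (43%), against 26.4% of coding genes. Such a tract was found in 33.3% of members with V5 and 47.5% of those without. It began exactly at the first base in 11 members (12.8%), against 2.25%, with 14.8% of members with V5 and 11.9% of those without. Annotated starts can lie some bases from the true ones, which limits these counts. The starts of Rpl37, a member with a long tract, and of Rps27 and its retrocopy Rps27rt, chosen after the values were seen, are shown from 30 bases before to 20 bases from the annotated start, with the tract in capitals.
Rpl37: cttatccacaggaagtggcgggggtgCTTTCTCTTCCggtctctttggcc
Rps27: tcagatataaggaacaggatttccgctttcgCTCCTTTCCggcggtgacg
Rps27rt: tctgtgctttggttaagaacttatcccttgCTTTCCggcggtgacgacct
Rps27 and Rps27rt share the bases ctttccggcggtgacg near the start of the transcript and differ before it. This stretch begins at the first base of Rps27rt and a few bases into the transcript of Rps27. Rps27 had a Pol2 score of 3689 and an H3K27ac score of 1570, and Rps27rt had no peak in any list.

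The copies and paralogs divided in this way more generally. No Pol2 promoter peak was found at Rpl10l, Rpl39l, Rpl3l and Rps27rt, and no H3K27ac promoter peak at Rpl10l, Rpl39l and Rps27rt, while Rpl3l, a form known from striated muscle, had an H3K27ac score of 41. The genes they resemble were all active, with Pol2 scores of 2545 for Rpl10, 1331 for Rpl39 and 7319 for Rpl3. Rpl22l1 (Pol2 3795, H3K27ac 1763) was the only one of the 9 with V5 (253), and it scored above its paralog Rpl22 (Pol2 1160, H3K27ac 1300, no V5). Rpl36al (4284) also scored above the X-linked Rpl36a (1086) for Pol2. Rpl7l1 scored 3023 and Rps27l 2123 for Pol2, both without V5.

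The 4 members on chromosome X had lower median scores than those on autosomes, though the ranges overlapped. Rpl10 scored 2545, Rpl39 1331, Rps4x 1102 and Rpl36a 1086 for Pol2, and 945, 518, 297 and 120 for H3K27ac. Their medians were 1216 and 408, against 3128 and 1201 in members on autosomes, and none had V5. Coding genes showed the same order, with median Pol2 scores of 408 on chromosome X and 932 on autosomes, H3K27ac medians of 384 and 883, and V5 at 2.85% and 17.4%. The sex of the tumour-bearing mice was not used here.

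Pol2 peaks ran into the bodies of these genes. Members are short, and 10 were covered over their whole length by Pol2 peaks: Rpl7a, Rpl10, Rpl10a, Rpl12, Rpl13a, Rpl36, Rpl41, Rps21, Rps27 and Rps27a. Below 2.5 kb, whole coverage was found in 28.6% of members, 23.8% of coding genes with a Pol2 promoter peak and 44.8% of those of the upper 25% by Pol2. From 2.5 to 5 kb these shares were 9.09%, 6.01% and 15.9%. In genes of 2.5 to 5 kb, the median covered share was 37% in 44 members, 19% in coding genes with a Pol2 promoter peak and 38% in those of the upper 25% by Pol2. In genes of 5 to 10 kb these medians were 26.4% in 13 members, 9.78% and 20%. Below 2.5 kb they were 42.2% in 21 members, 47.1% and 88.4%. In genes over 10 kb there were 4 members, with a median of 23.2%, against 2.18% and 3.8%. Annotated lengths include alternative starts far from the principal one, so this class does not hold only members with long principal transcripts. Rpl3 was covered over 43.8% of its annotated length and Rps6 over 90.9%. At Rpl3 a single Pol2 peak ran from the principal start past the annotated gene end, and the uncovered part lay upstream of that start. More than 1 Pol2 promoter peak was found at 61 of the 82 members (74.4%), against 23.7% of coding genes with such a peak. These shares were not matched for Pol2 score or gene length, whose median was 3328 bp in members and 17425 bp in all coding genes.

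**Figure D5:**
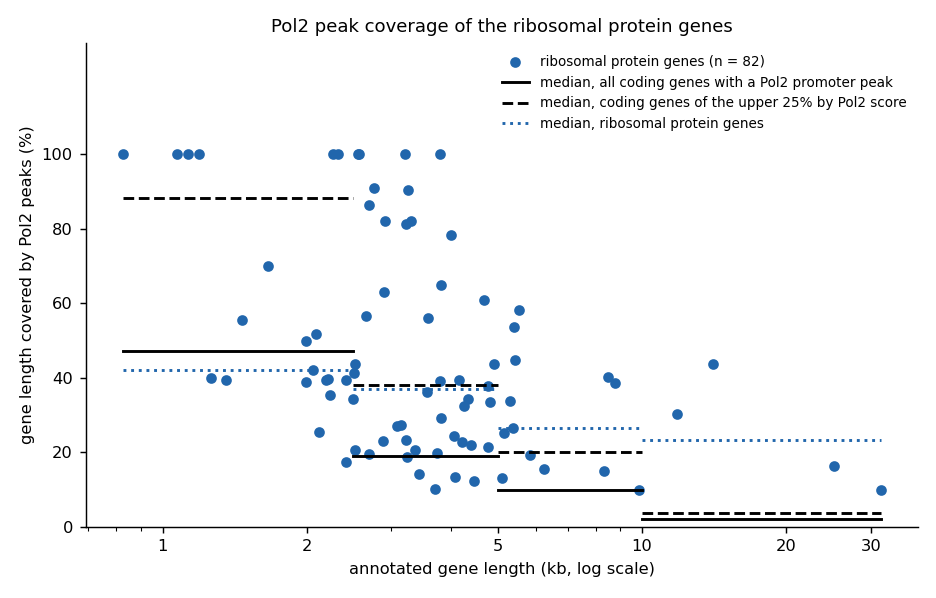
Share of the annotated gene length covered by Pol2 peaks (%, vertical axis) against gene length (kb, log scale) for the 82 members with a Pol2 promoter peak (points), with medians per length class for members and coding genes (lines). From 2.5 to 5 kb the median of members (37%) lies beside that of coding genes of the upper 25% by Pol2 (38%), and below 2.5 kb it lies under it.

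Genes that work with the ribosomal proteins gave these values. Of the 3 ribosomal protein genes outside the symbol rule, V5 was found at Fau (1438), which encodes a ribosomal protein fused to a ubiquitin-like protein, and not at Rack1. Mrpl49, a mitochondrial ribosomal protein gene also on chromosome 19, had the same score as Fau in each list, so the peak may not belong to Fau alone. Among 14 genes of elongation factors and other TOP mRNAs, 6 had V5 (42.9%), led by Tpt1 (1128), Eef1d (355), Eef2 (279) and Pabpc1 (218). Among 30 ribosome biogenesis genes, 14 had V5 (46.7%), led by Bysl (2999), Gar1 (977), Sbds (676) and Fbl (195). Among 10 regulators of ribosomal protein production, 4 had V5, which were Yy1 (2925), Rps6kb2 (1480), Myc (94) and Sp1 (67), and Mtor, Rptor, Larp1 and Gabpa had none. Each gene of these lists had a Pol2 and an H3K27ac promoter peak. Their shares are read against the 16.6% of all coding genes without a test, and the median Pol2 score was 1735 in the TOP list and 874 in the biogenesis list.

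The labelled tissue was checked against marker genes. Of 6 melanocytic and neural crest markers, Mitf and Pmel had Pol2 and H3K27ac promoter peaks, Dct had V5 alone, and Mlana, Sox10 and Tyr had no peak. None of 5 skeletal muscle markers had a peak in any list. H3K27ac promoter peaks were found at all 3 leukocyte, both endothelial and both fibroblast markers, with scores of 34 to 1554. Pol2 promoter peaks were found at Cd68 (1228), a macrophage gene, and Col1a1 (3415), a collagen gene of fibroblasts, and at none of the other 5 of these markers. The part of such cells in the peaks of the ribosomal protein genes was not tested.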

How the data were processed

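The authors aligned reads to mm10 with BWA-MEM (0.7.10-r789), removed duplicates, called peaks against input with MACS2 (2.2.6; broad peaks for H3K27ac) and discarded ENCODE denylisted regions. The 3 deposited peak lists, 1 per antibody, held 10665 V5, 20375 Pol2 and 27552 H3K27ac peaks, each with a score of unstated scale, which was compared only within a list. The study averaged replicates for its signal tracks, whereas how they were pooled for the peak lists, and how reads that map to several places were treated, is not given in the sources used here. The study describes V5 site sets of more than 1 size, the larger of them longer than the deposited list, so calls of no V5 peak refer to this list only. The labels give 4 samples per antibody and the methods name more for V5 and Pol2. The input samples were not analysed here.

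GENCODE vM21 and the GRCm38 genome (the assembly of mm10) gave starts and sequences. A promoter peak overlapped the 3 kb on either side of any TSS by at least 1 bp, and the highest-scored one was used. The principal transcript was the coding transcript ranked first by APPRIS, basic status and support level. Percentiles are over coding genes with a peak. Genes named were the 5 highest in each list, those without Pol2 or H3K27ac, those with TGACGTCA in a V5 peak, those on chromosome X, those whose V5 peak lay nearer to another gene, the copies, and the 3 widest and 3 lowest V5 peaks, with up to 4 examples from other lists, and results for some of these genes are not reported here. The members, lists and rules were chosen with earlier results of these data known. The overlap and motif searches were tested on simulated data. Python 3.11.15, numpy 2.4.6, pandas 2.3.3 and matplotlib 3.10.9 were used.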

Additional observations from a re-analysis of the deposited data

How the results depend on the processing

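The share of members with V5 stayed above that of all coding genes under each of 8 alternatives to the promoter rule, with a ratio of 1.93 to 2.23. With only the upper 50% of each list by score, V5 and all 3 peaks were each found at 16.3% of members. Without the copies and Rps19bp1, Pol2 and H3K27ac were each found at 100% of members, and with each peak given to its nearest coding TSS only, H3K27ac was found at 88.4%. With this last rule Rpl4, Rpl9 and Rpl15 lost their V5 call. The share of coding genes with V5 was 15.2% in a 1 kb window, 17.9% in a 5 kb window, 14.3% with principal starts only, 15.5% with coding starts only, 7.3% in the upper 50% by score and 14.3% with the nearest coding TSS only. The half-site TGACG was found in 58.1% of members in a window from 500 bp before to 100 bp after the start, and in 31.4% from 100 bp before to 50 bp after, against 33.4% and 16.2% of coding genes. Alternatives added after the data were seen gave, for members with V5, 92.6% and 63% in these windows (62.6% and 37.9% of coding genes with V5), and for members without V5, 42.4% and 16.9% (27.6% and 11.9%). The other 55 planned values moved by less than their counting interval. No paired analysis was possible because the lists hold 1 set of peaks per antibody and no value per replicate, and no replicate could be left out. The study names an approximate depth for its libraries, but the lists give none per sample, so a missing peak means only that none was called.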

Other observations

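Many ribosomal protein genes carry small nucleolar RNA genes, which guide modification of ribosomal RNA, within their introns. At least 1 annotated small nucleolar RNA gene lay inside 30 of 86 members (34.9%), 58 such genes in all, against 1.27% of coding genes. V5 was found at 11 of these 30 hosts (36.7%) and at 16 of the other 56 members (28.6%), without a test of the difference. Over all coding genes these shares were 29.4% of hosts and 16.4% of the others. The median Pol2 score was 3277 in host members and 3026 in the others, against 1382 and 912 over all coding genes.

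The 59 members without a V5 promoter peak lay a median of 53757 bp from the nearest V5 peak (range 4042 to 1658850 bp), against a median of 122945 bp for coding genes without one. A V5 peak lay within 10 kb of 6 of them (10.2%) and within 50 kb of 29 (49.2%), against 3.77% and 26% of coding genes without one. Among the nearest were those of Rpl17 (4964 bp) and Rpl12 (5052 bp), named after their values were seen, and the farthest was that of Rpl10l.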
